A study of Bos taurus and other sequences with 9 samples.

Results

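The miR-30 family was followed through 9 samples of cell culture media. Its 5 members, hsa-miR-30a-5p, hsa-miR-30b-5p, hsa-miR-30c-5p, hsa-miR-30d-5p and hsa-miR-30e-5p, were taken by name from a table of 425 miRNAs, and all 5 were present. The names are human ones, although the serum was bovine. Some of the mature miR-30 sequences are nearly identical, whereas others differ more outside the seed, and the sequences were not compared here. Reads that matched a mature miRNA perfectly were counted first. The rest were placed in a genome with up to 1 mismatch and added where they fell on a known miRNA locus. A read with a sequencing error could thus be counted for another member of nearly the same sequence.

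miRNAs are short RNAs that lower the output of messenger RNAs by guiding an Argonaute protein to matching sites, mostly through a stretch near their 5′ end called the seed. The miR-30 members share their seed, so that their sets of possible targets overlap largely, and they are abundant in kidney, heart, muscle and fat. Known targets include BECN1, an autophagy gene, for miR-30a, and MTTP, needed for the assembly of lipoproteins, for miR-30c, and the family is known for roles in adipocyte and podocyte differentiation. Outside cells, miRNAs circulate in extracellular vesicles (EVs), on Argonaute proteins and on lipoproteins. In the RefSeq annotation of the cattle genome, MIR30C and MIR30E are neighbours that both overlap NFYC, the gene of a transcription factor subunit, MIR30B and MIR30D are neighbours of each other, and MIR30A stands apart from these.

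Fetal bovine serum (FBS) carries its own RNA into cell cultures, and the study compared ways of depleting it. Each medium was 1 preparation per sample, without cells. FBS medium was DMEM/F12 with untreated serum and penicillin-streptomycin, with Sigma-Aldrich serum in FBS-1 and Gibco serum in FBS-2. UC-dFBS medium held the supernatant of the same 2 sera after long ultracentrifugation, and UF-dFBS medium held the part of them that passed through a centrifugal ultrafilter. SBI-dFBS medium held a commercial EV-depleted serum of System Biosciences in 2 lots, whose starting sera were not those of the other media. StemPRO was a defined serum-free and xeno-free medium for mesenchymal stem cells from Gibco, with 1 sample and therefore no replicate. The SD between the 2 samples of a medium holds the difference between sera or lots as well as that between preparations. p-values of the comparisons of media rest on that spread, with variance estimates that share information across miRNAs. In fits with supplier or serum as a term, p-values rest on how the difference between the sera varied among FBS, UC-dFBS and UF-dFBS. Each supplier stood for 1 lot of serum, so that these p-values do not cover other lots.

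The unit used below, the spike-in normalized count, is the number of UMI-corrected reads (UMIs are random tags that mark copies of 1 molecule) divided by a factor that the authors fitted to RNAs added in known amounts. One spike-in normalized count stood for 3.78 to 9.04 reads in FBS, UC-dFBS and SBI-dFBS samples, for 55.2 and 24.0 reads in UF-dFBS-1 and UF-dFBS-2, and for 108 reads in StemPRO. miRNA counts were between 26275 and 203755 in these 6 samples, 4204 and 937 in UF-dFBS, and 1438 in StemPRO. Members in UF-dFBS and StemPRO therefore rest on 0 to 7 reads each. Intervals given for single samples or for summed counts are 95% intervals and cover counting error only, not the error of the spike-in factor.

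As a sum, the family reached 300.8 spike-in normalized counts with the Sigma-Aldrich and 148.8 with the Gibco serum before depletion, from 1457 and 1109 reads. The SBI-dFBS lots held 32.7 and 53.5, the UC-dFBS samples 42.7 and 19.1, the UF-dFBS samples 0.163 and 0.333, and StemPRO 0.139. Every depleted sample was below both FBS samples, the SBI-dFBS and UC-dFBS samples overlapped, and both UF-dFBS samples lay far below them. The order of the means was FBS (224.8 ± 107.5, SD, n = 2), SBI-dFBS (43.1 ± 14.7, n = 2), UC-dFBS (30.9 ± 16.7, n = 2), UF-dFBS (0.248 ± 0.120, n = 2) and StemPRO. Fewer vesicles, less miR-30 per vesicle and less miR-30 outside vesicles cannot be told apart in such bulk samples. The authors consider it likely that their samples held both vesicular and non-vesicular RNA. Their particle counts, from EVs isolated in another way, were similar in FBS and SBI-dFBS and very low in UF-dFBS. How these counts relate to the miR-30 values was not tested.

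Relative to FBS, the family mean was 80.8% lower in SBI-dFBS, 86.3% lower in UC-dFBS and 99.9% lower in UF-dFBS. These are differences of 5.21-fold, 7.28-fold and 906-fold. The sum over all miRNAs was 2.28-fold, 5.06-fold and 510-fold lower in the same media. The family sum was thus lower by a larger factor than the miRNA sum in each of them, though in the ultrafiltered Gibco serum the factors were close, at 447 (95% interval 225.9 to 1037) and 428. The sum over all miRNAs is led by miR-122-5p, a liver miRNA that alone held between 28.9% and 73.4% of the miRNA counts in the 8 serum samples.

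**Figure D1:**
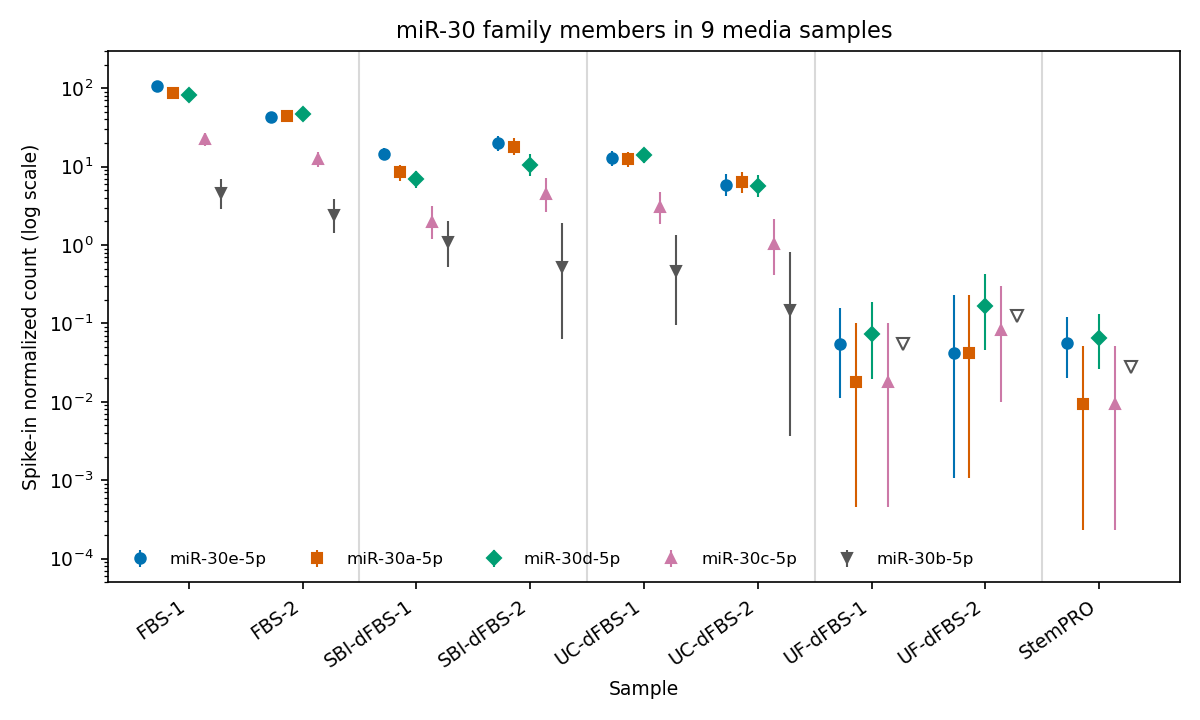
Spike-in normalized counts of the 5 miR-30 members (log axis) in each of the 9 samples, with bars for the exact Poisson 95% interval of the count and open symbols at the floor of 3 counts where no read was found. In FBS, SBI-dFBS and UC-dFBS miR-30c-5p and miR-30b-5p lie below the other 3 members, and UF-dFBS and StemPRO lie at 0.167 or lower.

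miR-30e-5p, whose cattle gene lies beside MIR30C, was the most abundant member in FBS-1. The FBS samples held 105.9 and 43.1 spike-in normalized counts of it, the SBI-dFBS lots 14.4 and 19.9, the UC-dFBS samples 12.8 and 5.86, the UF-dFBS samples 0.0543 and 0.0416, and StemPRO 0.0555. The depleted samples did not overlap with FBS, and both SBI-dFBS lots were above both UC-dFBS samples, a difference that was not tested. It ranked 28th and 38th among the 425 miRNAs in the FBS samples.

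miR-30a-5p, the member known to target BECN1, stood at 86.1 and 43.6 spike-in normalized counts before depletion, at 8.40 and 18.0 in the SBI-dFBS lots, at 12.4 and 6.30 after ultracentrifugation, at 0.0181 and 0.0416 after ultrafiltration and at 0.00926 in StemPRO. The values in UF-dFBS and StemPRO were 1 read per sample. SBI-dFBS and UC-dFBS overlapped, and the second SBI-dFBS lot was the highest of the depleted samples.

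miR-30d-5p, the neighbour of miR-30b, stood at 82.0 and 47.4 spike-in normalized counts before depletion, at 6.86 and 10.6 in the SBI-dFBS lots, at 13.9 and 5.72 after ultracentrifugation, at 0.0724 and 0.167 after ultrafiltration and at 0.0648 in StemPRO. In contrast to miR-30e-5p, its highest depleted value was that of UC-dFBS-1 and not an SBI-dFBS lot. It was the member with the most reads left in UF-dFBS, with 4 in each sample.

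miR-30c-5p, known to act on MTTP, was lower than these members in each FBS, SBI-dFBS and UC-dFBS sample. The FBS samples held 22.3 and 12.3 spike-in normalized counts, the SBI-dFBS lots 1.99 and 4.50, the UC-dFBS samples 3.06 and 1.03, the UF-dFBS samples 0.0181 and 0.0833, and StemPRO 0.00926. The ultrafiltered sera held 1 and 2 reads and StemPRO 1 read, and there it was not lower than miR-30a-5p.

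miR-30b-5p was the least abundant member, with 4.54 and 2.41 spike-in normalized counts before depletion, 1.106 and 0.529 in the SBI-dFBS lots, 0.459 and 0.147 after ultracentrifugation, and no read in UF-dFBS or StemPRO. A count of 0 allowed up to 0.0543 and 0.125 spike-in normalized counts in the UF-dFBS samples and 0.0278 in StemPRO. The first SBI-dFBS lot was the higher one for miR-30b-5p, with 10 reads against 2 in the second, whereas the second lot was higher for the other 4 members.

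In SBI-dFBS against FBS, 4 of 5 members were lower in the quasi-likelihood test of edgeR (adjusted p under 0.05), where 44.2% of all 163 miRNAs tested were lower. The members' median log2 change was -2.31 and that of all miRNAs tested -1.70. miR-30d-5p fell by 2.90 on the log2 scale (SE 0.64, adjusted p = 1.15e-04, edgeR), the largest change of the members. miR-30c-5p had a log2 change of -2.45 (SE 0.81, adjusted p = 0.00943), miR-30a-5p of -2.31 (SE 0.62, adjusted p = 0.00164) and miR-30e-5p of -2.13 (SE 0.62, adjusted p = 0.00356) in the same edgeR fit. miR-30b-5p, at -1.97 (SE 1.03), did not pass (adjusted p = 0.0944, edgeR).

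These calls rested on single samples. Without FBS-1 only miR-30d-5p passed (log2 change -2.45, adjusted p = 0.0164, edgeR), and without the first SBI-dFBS lot none of the 5 did, with adjusted p between 0.0502 and 0.208 and 3 of 5 under 0.05 unadjusted. With TMM scaling, which sets the bulk of miRNAs near no change, none passed in edgeR (none at an unadjusted p under 0.05), and the members' values were between -1.08 and -0.04.

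In UC-dFBS against FBS, all 5 members were lower, where 90.8% of all miRNAs tested were, so that the members did what nearly every miRNA did. Their median log2 change was -2.99, beside -2.70 for all. miR-30b-5p had -3.48 (SE 1.16), miR-30c-5p -3.08 (SE 0.83), miR-30e-5p -2.99 (SE 0.64), miR-30a-5p -2.79 (SE 0.63) and miR-30d-5p -2.72 (SE 0.63), with adjusted p between 4.94e-05 and 0.00472 (edgeR). These values differ from one another by less than the SE of miR-30b-5p. With 3 and 1 reads in UC-dFBS, miR-30b-5p entered the fit only through its counts in FBS and SBI-dFBS. Its call is therefore no separate support. Without UC-dFBS-2, 3 of 5 passed, and miR-30b-5p (adjusted p = 0.0847) and miR-30c-5p (adjusted p = 0.0645) did not (edgeR). With TMM scaling none of the 5 passed in edgeR, none at an unadjusted p under 0.05, and the log2 changes were between -0.89 and -0.16.

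The factors of depletion by ultracentrifugation overlapped between the 2 sera. In the Sigma-Aldrich serum the family sum was 7.05-fold higher before than after it (95% interval 6.20 to 8.04), and in the Gibco serum 7.81-fold (6.50 to 9.44). For the sum over all miRNAs the ratios were 5.42 and 4.33, below these intervals. For miR-30a-5p the ratios were 6.95 and 6.92, for miR-30d-5p 5.89 and 8.28, and for miR-30e-5p 8.24 and 7.34, with overlapping intervals for each member.

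In UF-dFBS against FBS, all 5 members were lower at the spike-in scale, where 98.2% of all miRNAs tested were. miR-30a-5p had a log2 change of -10.87 (SE 0.97, adjusted p = 2.07e-25), miR-30e-5p of -10.32 (SE 0.93, adjusted p = 4.66e-25) and miR-30d-5p of -9.11 (SE 0.87, adjusted p = 7.16e-23) in edgeR. miR-30c-5p had -8.43 (SE 1.09, adjusted p = 7.19e-14, edgeR), and this direction did not hold with TMM scaling (0.089) or with the size factors of DESeq2 (0.022). miR-30b-5p, with no read in UF-dFBS, was at least 38.8-fold lower than in FBS, against a floor of 3 counts per library. No member reached a count of 10 in UF-dFBS, so that all 5 entered the fit through their counts in the other media.

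Expressed as ratios of summed reads at the spike-in scale, FBS exceeded UF-dFBS 2391-fold for miR-30a-5p (95% interval 659.5 to 19778, from 2 reads left), 1344-fold for miR-30e-5p (522.8 to 4943, 4 reads left), 604-fold for miR-30d-5p (305.0 to 1404, 8 reads left) and 430-fold for miR-30c-5p (144.9 to 2101, 3 reads left). For the family it was 973-fold (606 to 1672, 17 reads left). The intervals of the members overlap, so that different removal of single members was not detectable with so few reads.

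By serum, the family sum was 1846-fold higher before than after ultrafiltration in the Sigma-Aldrich serum (95% interval 969.7 to 4045) and 447-fold in the Gibco serum (225.9 to 1037), which overlap narrowly. The ratio of miR-30d-5p was 1132 (438.5 to 4174) and 284 (110.1 to 1049), and that of miR-30e-5p 1950 (663 to 9486) and 1034 (184 to 40979). miR-30b-5p was at least 83.6-fold lower in the first serum and at least 19.3-fold lower in the second. Each ratio rests on at most 4 reads of a member after ultrafiltration.

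The median log2 change of the members was -9.11, also with miR-30b-5p set to its bound, and that of all miRNAs tested was -8.67, or -7.66 with the 43 miRNAs that had no read in UF-dFBS set to theirs. With TMM scaling no member passed in UF-dFBS (edgeR, 2 of 5 at an unadjusted p under 0.05), and the median of all miRNAs tested moved from -8.67 to -0.59. In SBI-dFBS and UC-dFBS the same scaling moved it from -1.70 to 0.21 and from -2.70 to -0.08. The members' calls are thus calls of a fall relative to the spike-ins, which most miRNAs shared.

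**Figure D2:**
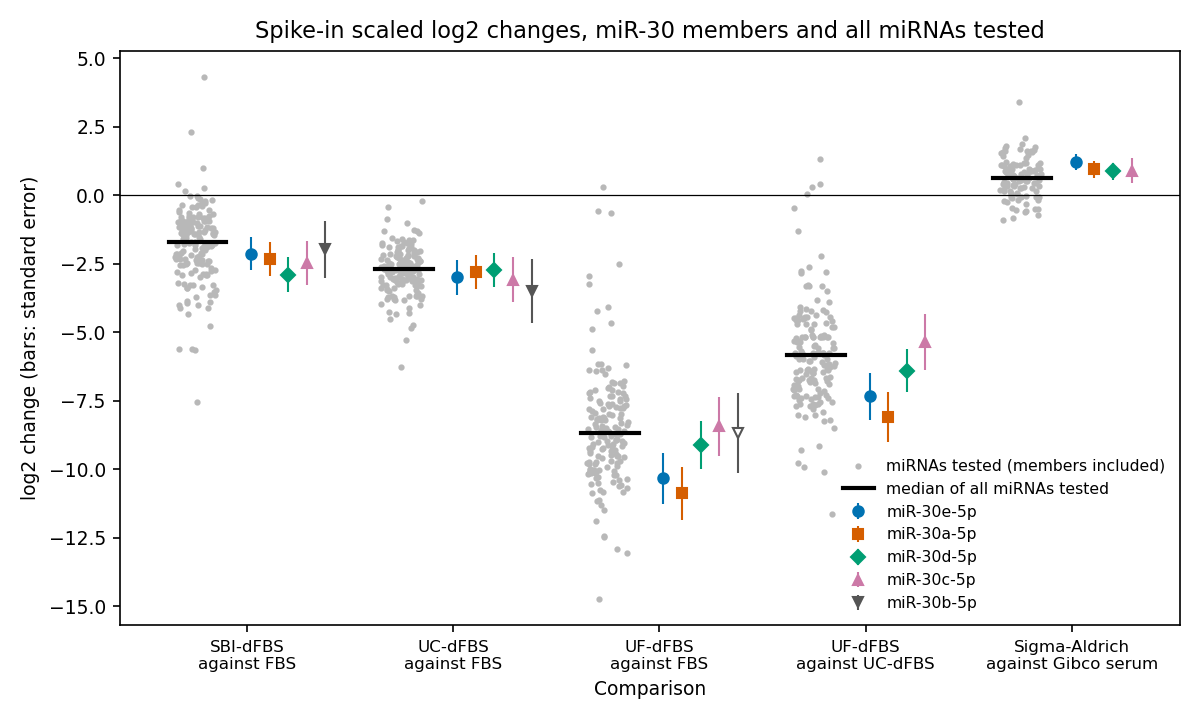
log2 changes of the 5 miR-30 members (coloured symbols, bars for the SE) beside those of all miRNAs tested (grey points, black line at their median) in 5 comparisons at the spike-in scale, with an open symbol for the fitted value of miR-30b-5p in UF-dFBS against FBS, which is no bound since UF-dFBS had no read. Members lie near the median in UC-dFBS (-2.70 for all miRNAs) and below it in SBI-dFBS, where miR-30d-5p is the lowest, and with TMM scaling no member passed in any of these comparisons and miR-30c-5p turned to 0.089 in UF-dFBS against FBS and to 0.61 against UC-dFBS.

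Ultrafiltration left less of the family than ultracentrifugation of the same sera. The members other than miR-30b-5p were lower in UF-dFBS than in UC-dFBS (edgeR), where 93.9% of all miRNAs tested were. Their log2 changes were -8.08 for miR-30a-5p (SE 0.91), -7.33 for miR-30e-5p (SE 0.86), -6.39 for miR-30d-5p (SE 0.80) and -5.35 for miR-30c-5p (SE 1.03). With 3 and 1 reads of miR-30b-5p after ultracentrifugation and 0 after ultrafiltration, this comparison could not test it, and no fold is given. It entered the fit only through its counts in FBS and SBI-dFBS, so that its call is not used. Of the 163 miRNAs tested, 12, with miR-30b-5p among them, had at most 3 reads in each UC-dFBS sample and none in UF-dFBS. miR-30c-5p reversed to 0.61 with TMM scaling, under which no member passed (edgeR, 1 of 5 at an unadjusted p under 0.05). In the Sigma-Aldrich serum the family sum was 262-fold higher after ultracentrifugation than after ultrafiltration (95% interval 136.0 to 579), and in the Gibco serum 57.2-fold (28.2 to 135.3). These intervals do not overlap, but UF-dFBS held 9 and 8 reads of the family.

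Between the sera, 3 of the 4 members tested were higher in the Sigma-Aldrich serum over FBS, UC-dFBS and UF-dFBS at the spike-in scale, where 35.2% of 105 miRNAs tested were. miR-30e-5p was higher by 1.21 on the log2 scale (SE 0.30, adjusted p = 0.00114, edgeR), miR-30a-5p by 0.95 (SE 0.30, adjusted p = 0.00807) and miR-30d-5p by 0.87 (SE 0.30, adjusted p = 0.0135). miR-30c-5p had 0.90 (SE 0.46, adjusted p = 0.108, edgeR), and miR-30b-5p had too few reads for the fit. No member passed without FBS-1, FBS-2, UC-dFBS-1 or UC-dFBS-2 (adjusted p between 0.489 and 0.908, none at an unadjusted p under 0.05, edgeR). None passed with TMM scaling (edgeR) or with DESeq2 and its own size factors, without any at an unadjusted p under 0.05, or with DESeq2 and the spike-in factors, where 1 was under 0.05 unadjusted. Without UF-dFBS-1 or UF-dFBS-2, all 4 passed (adjusted p at most 0.0245, edgeR). Since medium was a term, leaving out either sample of a medium removed that medium from the comparison of the sera. Fits without FBS-1 and without FBS-2 thus nearly repeat each other (miR-30e-5p at 1.03 in both), and few samples are left to test the sera. In the samples themselves the family sum was 2.02-fold higher in FBS-1 than in FBS-2 and 2.24-fold higher in UC-dFBS-1 than in UC-dFBS-2. In UF-dFBS the ratio was 0.489 (95% interval 0.168 to 1.46).

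The 2 SBI-dFBS lots differed by 1.63-fold in the family sum (95% interval 1.36 to 1.961), the second being higher. By member, the ratio of the second to the first lot was 2.14 for miR-30a-5p (1.52 to 3.01), 2.26 for miR-30c-5p (1.095 to 4.65), 1.54 for miR-30d-5p (1.01 to 2.34), 1.38 for miR-30e-5p (1.03 to 1.85) and 0.479 for miR-30b-5p (0.0510 to 2.25). The sum over all miRNAs differed in the same direction, by 1.69-fold.

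StemPRO held 15 reads of the family, 7 of miR-30d-5p, 6 of miR-30e-5p, 1 each of miR-30a-5p and miR-30c-5p, and none of miR-30b-5p. Per spike-in, UF-dFBS-1 held 1.17 times as much of the family as StemPRO (95% interval 0.453 to 2.86) and UF-dFBS-2 2.40 times as much (0.881 to 6.03). Differences between UF-dFBS and the serum-free medium were thus not detectable for the family with so few reads. The sum over all miRNAs was 5.72-fold and 2.93-fold higher in the UF-dFBS samples than in StemPRO.

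Against the mean of FBS the family was 1619-fold lower in StemPRO, and 1503-fold lower from summed reads (95% interval 909 to 2689). For single members the summed reads gave 1221-fold for miR-30e-5p (559 to 3337), 941-fold for miR-30d-5p (455 to 2349), and ratios with very wide intervals for miR-30a-5p (6519, 1166 to 257812) and miR-30c-5p (1757, 312 to 69741). miR-30b-5p was at least 125-fold lower than in FBS.

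As a share of miRNA counts, which does not depend on the spike-ins, the family made up 0.715% and 0.892% before depletion. The shares were 0.341% and 0.329% for the SBI-dFBS lots, 0.549% and 0.495% after ultracentrifugation, 0.214% and 0.854% after ultrafiltration, and 1.04% for StemPRO. Those of SBI-dFBS and UC-dFBS lay below both FBS samples, and their Wilson 95% intervals did not overlap with those of FBS. miR-122-5p made up 46.1% and 28.9% of miRNA counts before depletion, 68.0% and 73.4% for the SBI-dFBS lots, 59.6% and 54.5% after ultracentrifugation, 60.4% and 41.5% after ultrafiltration, and 0.487% for StemPRO.

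Among the miRNA counts other than miR-122-5p, a measure chosen after the values had been seen, the family made up 1.33% and 1.25% before depletion, 1.07% and 1.24% for the SBI-dFBS lots, and 1.36% and 1.09% after ultracentrifugation. Here UC-dFBS overlapped with FBS, and both SBI-dFBS lots were just below both FBS samples. The Wilson 95% interval of the first lot (0.953 to 1.195) lay below that of FBS-1 (1.261 to 1.397) and overlapped with that of FBS-2 (1.182 to 1.329), and the interval of the second lot (1.08 to 1.42) overlapped with both. The shares were 0.541% (95% interval 0.285 to 1.03) and 1.46% (0.742 to 2.85) after ultrafiltration, and 1.05% (0.636 to 1.72) for StemPRO.

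**Figure D3:**
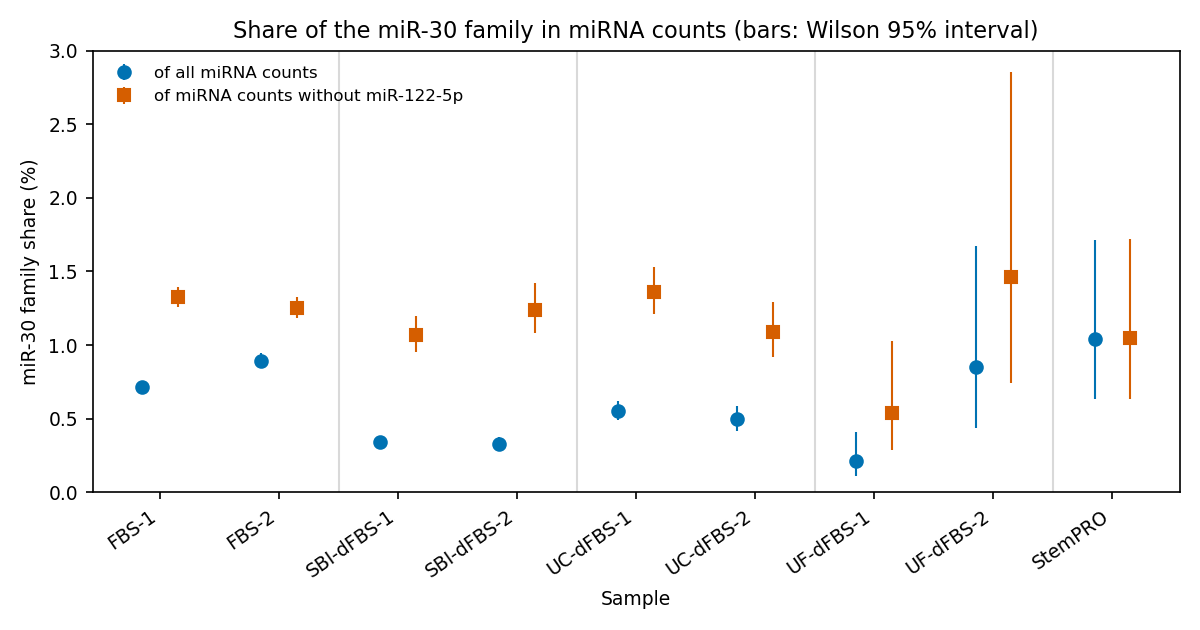
Share of the miR-30 family in all miRNA counts (circles) and in miRNA counts without miR-122-5p (squares) in percent for each of the 9 samples, with Wilson 95% intervals. The first measure falls from 0.715% and 0.892% in FBS to 0.341% and 0.329% in SBI-dFBS, whereas the second stays between 1.07% and 1.36% in FBS, UC-dFBS and SBI-dFBS.

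Within the family, shares were computed for the 6 samples with 130 to 1457 family reads, those of FBS, UC-dFBS and SBI-dFBS. miR-30e-5p made up 34.3% ± 5.7 of the family counts (SD, n = 6), miR-30a-5p 29.9% ± 3.0, miR-30d-5p 27.1% ± 5.5, miR-30c-5p 7.13% ± 1.2 and miR-30b-5p 1.56% ± 0.95. In this order, miR-30e-5p and miR-30a-5p differ by less than the SD of miR-30e-5p but by more than that of miR-30a-5p. miR-30a-5p and miR-30d-5p differ by less than the SD of either. The order of these 3 changed between samples, with miR-30e-5p first in FBS-1 and both SBI-dFBS lots, miR-30d-5p first in FBS-2 and UC-dFBS-1, and miR-30a-5p first in UC-dFBS-2, whereas miR-30c-5p and miR-30b-5p were lower in each of the 6 samples.

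The share of miR-30d-5p was lower in both SBI-dFBS lots than in the other 4 samples. It was 20.9% and 19.8% for the lots, 27.2% and 31.8% before depletion, and 32.6% and 30% after ultracentrifugation. The Wilson 95% intervals of both lots overlapped with those of FBS-1 and UC-dFBS-2. miR-30e-5p showed the opposite order, with 43.9% and 37.1% for the lots, 35.2% and 28.9% before depletion, and 30.1% and 30.8% after ultracentrifugation. For miR-30e-5p the interval of the second lot overlapped with those of all 4 other samples. The number of miR-30d-5p reads per miR-30e-5p read was 0.477 (95% interval 0.347 to 0.650) and 0.533 (0.354 to 0.793) for the lots, 0.774 (0.677 to 0.884) and 1.0997 (0.943 to 1.28) before depletion, and 1.08 (0.796 to 1.48) and 0.975 (0.611 to 1.55) after ultracentrifugation. Both lots were thus below the other 4 samples, with intervals that overlap with FBS-1 for the second lot only and with UC-dFBS-2 for both. The pattern was picked out after the values had been seen and was not tested.

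**Figure D4:**
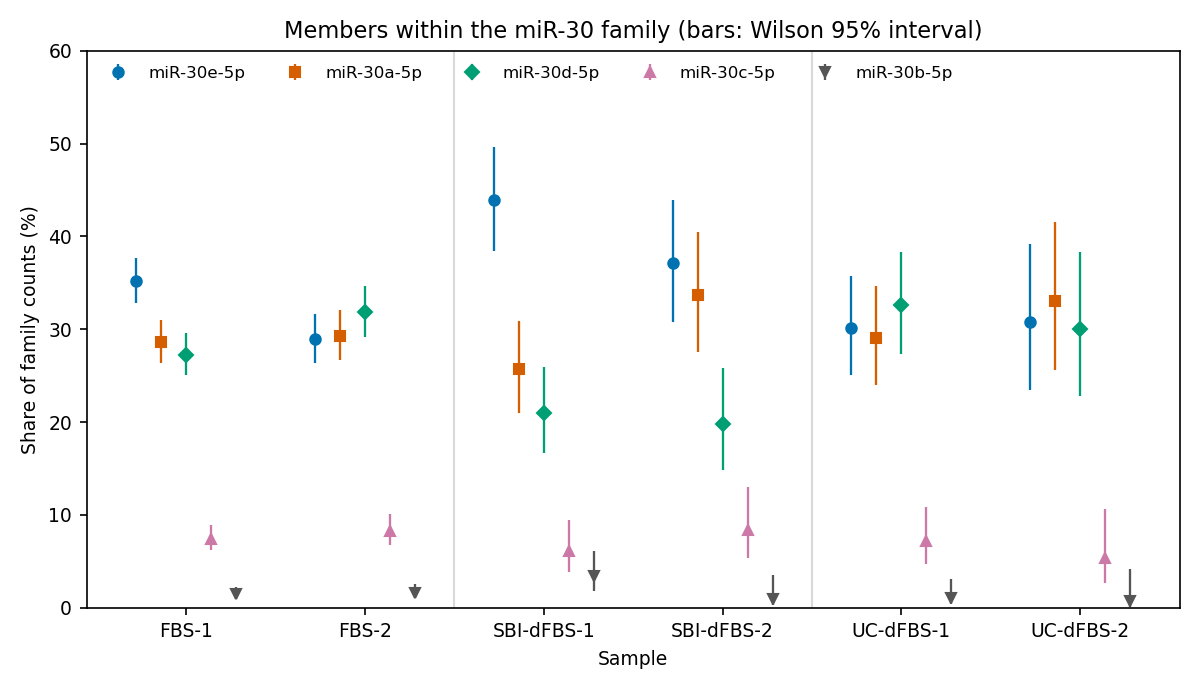
Share of each member in the family counts in percent for the FBS, UC-dFBS and SBI-dFBS samples (6 in all), with Wilson 95% intervals. miR-30e-5p, miR-30a-5p and miR-30d-5p lie between 19.8% and 43.9%, miR-30d-5p is lowest in the SBI-dFBS lots (20.9% and 19.8%), and miR-30c-5p and miR-30b-5p stay below 10%.

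The opposite arms of the same hairpins were scarcer. A hairpin yields 2 strands, of which the arm loaded less often into Argonaute is usually degraded. For miR-30e-3p the FBS samples gave 43 and 45 reads, the SBI-dFBS lots 19 and 4, the UC-dFBS samples 8 and 2, and the UF-dFBS samples 1 and 0. For miR-30a-3p these were 16 and 21, 6 and 5, 4 and 3, and 1 and 0 reads in the same order, and miR-30c-2-3p never exceeded 2 reads. StemPRO held none of the 3.

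The 5p arm outnumbered the 3p arm 11.9-fold and 7.13-fold for miR-30e in FBS, and 26.1-fold and 15.5-fold for miR-30a. Over SBI-dFBS and UC-dFBS these ratios were between 6.84 and 20 for miR-30e and between 12.7 and 20.25 for miR-30a, with intervals that overlap those of FBS-2. miR-30e-3p was lower in SBI-dFBS (log2 change -2.17, adjusted p = 0.0411, edgeR) and in UC-dFBS (-3.29, adjusted p = 0.00181), and miR-30a-3p was lower in UC-dFBS (-2.52, adjusted p = 0.0244, edgeR) but not called in SBI-dFBS (-1.70, adjusted p = 0.156). The call of miR-30e-3p in SBI-dFBS was lost without FBS-1 (adjusted p = 0.159), the first lot (0.137) or the second lot (0.218), without a filter (0.0729) and with DESeq2 on the spike-in factors (0.0768). In UC-dFBS the call of miR-30e-3p was lost without UC-dFBS-2 (adjusted p = 0.0847, edgeR), and that of miR-30a-3p without UC-dFBS-1 (0.0786) or UC-dFBS-2 (0.137). With TMM scaling neither was called, and miR-30a-3p turned to 0.030 in SBI-dFBS and 0.011 in UC-dFBS.

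For likeness of pattern, log2 values centred on each miRNA's mean over the 8 serum samples were compared by their root mean square difference. Counts under 3 were first set to 3. Nearest to the family sum were miR-103a-3p (0.29), let-7b-5p (0.36), let-7g-5p (0.37), miR-10b-5p (0.38) and miR-199a-3p (0.39), against a median of 1.39 over 158 miRNAs. miR-30a-5p and miR-30e-5p were each other's nearest miRNA among 162 (0.26), but both stood at the floor of 3 counts in the UF-dFBS samples. Without UF-dFBS, let-7i-5p was nearest to miR-30a-5p (0.15) and to miR-30e-5p (0.24), and miR-30e-5p was the 9th nearest of miR-30a-5p (0.29). With all 8 samples, miR-30d-5p was nearest to miR-24-3p (0.33) and miR-30c-5p to miR-19b-3p (0.49). The nearest of miR-30b-5p, miR-369-5p (0.06), shared with it values at or near the floor of 3 counts. Without the UF-dFBS samples, a choice made after the values had been seen, the nearest to the family sum were let-7i-5p (0.19), miR-103a-3p (0.21), miR-26b-5p (0.22), let-7b-5p (0.25) and miR-374a-5p (0.27), against a median of 0.72.

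Members encoded side by side were compared in the same way. miR-30e-5p differed from its neighbour miR-30c-5p by 1.03, the 56th of 162 miRNAs, and miR-30d-5p differed from its neighbour miR-30b-5p, which was at the floor in UF-dFBS, by 1.63, the 126th. These 8 samples include UF-dFBS, with 1 to 4 reads of miR-30c-5p, miR-30d-5p and miR-30e-5p each. Without UF-dFBS, miR-30c-5p was the 8th nearest of miR-30e-5p (0.34) and miR-30a-5p the 5th (0.29), and miR-30b-5p was the 68th nearest of miR-30d-5p (0.70). Within each sample, both miRNAs of a pair share a library and a spike-in factor, so that likeness holds the common fall of most miRNAs.

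As other seed families, all 9 let-7 miRNAs were lower in SBI-dFBS (median log2 change -2.80, edgeR), whereas 0 of 5 tested miRNAs of the miR-15/16 group were called there (median -1.39), where 44.2% of all miRNAs were lower. Without FBS-1, 5 of the 9 let-7 miRNAs were called, without the first SBI-dFBS lot 2 and without the second 6, and without FBS-2 1 of the 4 miR-15/16 miRNAs then tested was called (edgeR, chosen after the values had been seen). After ultracentrifugation 9 of 9 and 5 of 5 were lower, with medians of -2.77 and -2.55, and after ultrafiltration 9 of 9 and 5 of 5, with medians of -10.18 and -9.18, the latter -6.48 with the 3 miRNAs without a read at their bound. Without UC-dFBS-2, 3 of 9 and 2 of 5 were called in UC-dFBS, and of the miR-15/16 group 3 of 5 without UC-dFBS-1 and 2 of 4 without FBS-1. Between the sera, 6 of 9 let-7 miRNAs were higher in the Sigma-Aldrich serum, where 35.2% of all were, and 0 of 9 without FBS-1, FBS-2, UC-dFBS-1 or UC-dFBS-2 (edgeR, 0 at an unadjusted p under 0.05). With TMM scaling the median of all miRNAs moved near 0, as above, so that these calls are relative to the spike-ins too.

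Markers of cells that release RNA into serum moved with the media too. The sum of 4 red cell miRNAs was 245.5 and 286.1 spike-in normalized counts before depletion, 175.9 and 130.8 for the SBI-dFBS lots, 15.5 and 19.3 after ultracentrifugation and 0.634 and 0.916 after ultrafiltration. The family was 1.23 and 0.520 times that sum before depletion, 0.186 and 0.409 times for the lots, and 2.76 and 0.985 times after ultracentrifugation, 0.257 and 0.364 times after ultrafiltration and 0.469 times in StemPRO. The ratio was lower in both SBI-dFBS lots than in FBS and UC-dFBS. Relative to 4 white cell and platelet miRNAs it was 0.0819 and 0.127 times before depletion, 0.197 and 0.0849 times for the lots, and 0.137 and 0.139 times after ultracentrifugation. Relative to 4 liver miRNAs, led by miR-122-5p, the family was 0.0154 and 0.0307 times before depletion and between 0.00447 and 0.00920 times for the lots and after ultracentrifugation. It was 0.00352 and 0.0205 times after ultrafiltration and 1.36 times in StemPRO, which held 11 reads of the liver miRNAs. The part of these sources in the family's values was not tested.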

How the data were processed

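EV-enriched RNA of 9 media samples was isolated with a membrane kit and sequenced with unique molecular indices (UMIs). The authors trimmed reads with cutadapt 1.11, collapsed copies of 1 insert and UMI among reads with a full-length UMI, added reads with a partial UMI without collapsing them, removed matches to spike-ins, adapters, ribosomal and mitochondrial sequences, and mapped the rest with Bowtie2 2.2.2 to mature miRNAs and then to the human or bovine genome (GRCh37 in the submitters' processing notes). The deposited counts are such UMI-corrected reads per miRNA without normalization, and the sums of both deposited count tables gave the depth. The authors made the deposited spike-in normalized signal by dividing counts by the slope of a linear fit to external spike-ins. The ratio of count to signal was checked and was constant within each sample. Spike-in reads were not used here, so that each factor is treated as free of error. The normalized table of other small ncRNAs was not used.

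Tests across miRNAs used the quasi-likelihood F-test of edgeR 4.0.16 (R 4.3.3) with library sizes set to the spike-in factors, and adjusted p-values after Benjamini and Hochberg over all miRNAs tested (threshold 0.05). The medium fit took the 8 serum samples and required a count of 10 in 2 of them. The supplier fit took 6 samples (FBS, UC-dFBS, UF-dFBS), had medium as a term and required a count of 10 in 3 of them. StemPRO was not tested. The quasi-likelihood test gives no SE. The SE printed with edgeR values is the absolute log2 change divided by the square root of the F statistic. The fits were tested on simulated data. Alternatives were TMM, DESeq2 1.42.0 with its own or the spike-in factors, other filters and sample sets, single samples left out, and the serum as replicate block. Sums, shares and ratios were computed in python 3.11.15 with pandas 2.3.3 and scipy 1.17.1. Intervals of ratios of counts are exact conditional binomial ones. Ratios against a medium without a read used a floor of 3 counts per library.

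Samples numbered 1 and 2 of FBS, UC-dFBS and UF-dFBS are paired, as the labels and the methods trace them to the same Sigma-Aldrich and Gibco sera. The difference of sample 1 and sample 2, taken over 163 miRNAs, correlated at 0.494 for FBS with UC-dFBS, at 0.0551 for FBS with UF-dFBS and at -0.0870 for UC-dFBS with UF-dFBS. SBI-dFBS shares only the numbers (-0.217 to 0.0605). The miRNAs named are the 5 members, the other arms of their hairpins, the 5 miRNAs nearest to the family sum, the nearest to each member, and miR-122-5p, with 2 seed families and 3 marker lists as lists. The members and lists were chosen with earlier results of these data known. Neighbouring genes were read from RefSeq (cattle), whose assembly is not that of the files, so that no coordinates are given.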

Additional observations from a re-analysis of the deposited data

Results flagged for a closer look

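The difference between the sera went the other way in UF-dFBS than in FBS for the family sum and 3 members, and this difference between media was not tested. On the log2 scale, the ratio of Sigma-Aldrich to Gibco serum in UF-dFBS was -1.03 for the family sum, -1.20 for miR-30a-5p, -2.20 for miR-30c-5p and -1.20 for miR-30d-5p, whereas in FBS it was 1.02, 0.98, 0.85 and 0.79. The UF-dFBS values rest on 9 and 8 reads of the family, 1 and 1 of miR-30a-5p, 1 and 2 of miR-30c-5p and 4 and 4 of miR-30d-5p, and on 1 spike-in factor per sample (55.2 and 24.0 reads per spike-in normalized count). The 95% interval of the family ratio in UF-dFBS, 0.168 to 1.46, includes no difference. The sum over all miRNAs kept the direction of FBS, with a ratio of 1.95 in UF-dFBS.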

How the results depend on the processing

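With the spike-in factors, all members tested in UC-dFBS and UF-dFBS were called by DESeq2, without a filter, with a count of at least 50 (4 of 4), in fits of only the 2 groups compared and with the serum as replicate block. With the replicate block 5 of 5 members were called in each of the 3 comparisons among FBS, UC-dFBS and UF-dFBS, and 154, 155 and 150 of all miRNAs. Between UF-dFBS and UC-dFBS, the calls and values here and below include miR-30b-5p, which had too few reads in both media to be tested there. The block changed no call of a member. No paired fit was possible for SBI-dFBS, which has its own sera. The fit of UF-dFBS with UC-dFBS alone could test 3 members (3 called) and called 87 of 90 miRNAs. A count of at least 50 left 91, 95 and 95 calls of 97 miRNAs for UC-dFBS, for UF-dFBS and between them, and no filter gave 277 calls of 419 for UF-dFBS. For the sera, 24 miRNAs and 1 member were called without a filter, 19 miRNAs with a count of at least 50, and 14 miRNAs and 0 members by DESeq2 with the spike-in factors.

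TMM called 0 members in each of the 5 comparisons, and 10, 0, 22, 15 and 13 miRNAs for SBI-dFBS, UC-dFBS, UF-dFBS, UF-dFBS against UC-dFBS and the sera (9 at an unadjusted p under 0.05 for UC-dFBS, edgeR). DESeq2 with its own size factors called 0 members and 10, 2, 23, 16 and 4 miRNAs. Of the calls with TMM in UF-dFBS 12 were higher and 9 against UC-dFBS, and 14 and 10 with DESeq2. By construction, these scalings set most miRNAs near no change. Directions that reversed with TMM were miR-30a-3p (0.030 in SBI-dFBS, 0.011 in UC-dFBS, 0.78 in UF-dFBS, 0.77 in UF-dFBS against UC-dFBS), miR-30c-5p (0.089 and 0.61 in the last 2) and miR-30e-3p (0.32 in the last). With DESeq2's size factors they were miR-30c-5p (0.022 and 0.68), miR-30a-3p (0.80 and 0.92), and, against UC-dFBS, miR-30b-5p (0.41) and miR-30e-3p (0.47).

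With 1 sample left out, the lone sample is assumed to vary like the other media in the comparisons of media. In the supplier fit the term for its medium takes up the lone sample, so that the sera are compared in the other media only. The members called ranged from 0 to 4 for SBI-dFBS (0 without the first lot), 3 to 5 for UC-dFBS, 4 to 5 for UF-dFBS against UC-dFBS and 0 to 4 for the sera, and stayed 5 for UF-dFBS. All miRNAs called ranged from 8 to 61 for SBI-dFBS, 56 to 123 for UC-dFBS and 0 to 59 for the sera, where 0 were left without FBS-1 or FBS-2 (3 at an unadjusted p under 0.05 each, edgeR). Over all alternatives, the adjusted p of miR-30d-5p in SBI-dFBS ranged from 3.26e-04 to 0.211, that of miR-30c-5p and miR-30b-5p in UC-dFBS from 4.37e-09 and 3.69e-04 to 0.995, and that of miR-30b-5p in UF-dFBS against UC-dFBS from 0.00153 to 0.680 (edgeR or DESeq2).

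The family's log2 ratio to FBS was -2.38 for SBI-dFBS, -2.86 for UC-dFBS and -9.82 for UF-dFBS. As a share of miRNA counts it was -1.26, -0.62 and -0.59, without miR-122-5p -0.16, -0.076 and -0.37, and as a share of all small ncRNA counts -4.44, -3.31 and -4.49. The last share was 0.0364% and 0.184% before depletion, 0.00672% and 0.00338% for the SBI-dFBS lots, 0.00789% and 0.0142% after ultracentrifugation, and 0.000131% and 0.00970% after ultrafiltration. Leaving out 1 sample, chosen after the values had been seen, moved its log2 ratio between -5.18 (without FBS-1) and -2.85 (without FBS-2) for SBI-dFBS, -4.05 (without FBS-1) and -1.72 (without FBS-2) for UC-dFBS, and -9.71 (without UF-dFBS-2) and -2.89 (without FBS-2) for UF-dFBS. From raw counts it was -7.24 for UF-dFBS. Few miRNA reads limit UF-dFBS and StemPRO, with 8 to 15 family reads per sample. For UF-dFBS-1 this is not low depth in general, since it had 6867736 small ncRNA counts, the most of any sample. UF-dFBS-2 and StemPRO had 82513 and 6679 small ncRNA counts, the fewest of all samples.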
